A study of Homo sapiens with 2 samples.

Results

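The epidermal differentiation complex and the S100 genes around it were examined as 1 stretch of chromosome 1, from 151.95 to 153.75 Mb of hg19, in H3K27ac HiChIP data of HCT116. Its members were the loops between different anchors up to 2 Mb apart with at least 1 anchor overlapping this stretch. They numbered 1014 of 1017526 loops in replicate 1 and 1196 of 1156897 in replicate 2, held by 200 of 250223 anchors. HCT116, a long-established line from a human colorectal carcinoma, was grown without any treatment that the labels name. HiChIP ligates nearby chromatin fragments and then immunoprecipitates them, here with an antibody against H3K27ac, a mark of active enhancers and promoters, so a count is a paired-end tag that joins 2 anchors. Both samples were replicates of 1 condition, and nothing states that they came from separate cultures, so their spread may be technical.

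The complex holds genes of the outer layer of the skin. Filaggrin (FLG) and its relatives of the fused S100 type bind keratin filaments, and loricrin, involucrin (IVL), the small proline-rich proteins (SPRR) and the late cornified envelope proteins (LCE) are cross-linked into the envelope of dying keratinocytes. These genes form the interior of the stretch. S100 genes, which encode small calcium-binding proteins, lie on both sides of it. S100A10 and S100A11, partners of annexins, make up the left end (151.95 to 152.02 Mb). The right end (153.3 to 153.7 Mb) was divided at 153.47 Mb into a stretch from S100A9 to S100A7, genes of neutrophils and inflamed skin, and a stretch from S100A6 past S100A1 to INTS3, whose S100 genes are used in many epithelia. PGLYRP4, which encodes a peptidoglycan recognition protein, lies within the right end by these limits.

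Promoter sequences of the ends were set beside those of the interior. The 250 bases upstream of the annotated start are shown for 7 genes, 5′ to 3′ on the gene's strand, read from GRCh37, which has the coordinates of hg19. Capitals mark each match to TGANTCA, the letters bound by AP-1 factors, and each TATAAA on the gene's strand that lies between 40 and 15 bases before the start. S100A10, S100A4 and S100A2 are shown because their anchors had the highest counts, S100A9 as a low S100 gene, and FLG, SPRR1A and LORICRIN for the interior.
S100A10 (chr1:151966336-151966585, minus strand): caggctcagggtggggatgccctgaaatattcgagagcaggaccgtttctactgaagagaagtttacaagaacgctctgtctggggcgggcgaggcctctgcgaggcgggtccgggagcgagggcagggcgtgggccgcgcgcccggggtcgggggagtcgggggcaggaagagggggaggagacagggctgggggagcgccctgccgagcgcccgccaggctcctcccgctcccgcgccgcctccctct
S100A4 (chr1:153518283-153518532, minus strand): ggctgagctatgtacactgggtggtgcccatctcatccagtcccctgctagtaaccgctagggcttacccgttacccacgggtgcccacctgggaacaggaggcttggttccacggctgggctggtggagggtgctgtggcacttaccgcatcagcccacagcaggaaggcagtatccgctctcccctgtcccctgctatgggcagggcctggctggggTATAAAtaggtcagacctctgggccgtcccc
S100A2 (chr1:153538321-153538570, minus strand): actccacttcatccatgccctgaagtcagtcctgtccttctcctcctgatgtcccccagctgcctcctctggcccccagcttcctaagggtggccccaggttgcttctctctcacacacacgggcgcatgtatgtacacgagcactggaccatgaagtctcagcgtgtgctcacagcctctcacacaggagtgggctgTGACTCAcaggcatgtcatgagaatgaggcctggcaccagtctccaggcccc
S100A9 (chr1:153330080-153330329, plus strand): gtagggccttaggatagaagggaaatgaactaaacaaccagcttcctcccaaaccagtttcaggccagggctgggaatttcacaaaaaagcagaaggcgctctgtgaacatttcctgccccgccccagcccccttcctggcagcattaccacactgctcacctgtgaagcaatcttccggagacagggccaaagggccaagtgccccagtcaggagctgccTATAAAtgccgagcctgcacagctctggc
FLG (chr1:152297716-152297965, minus strand): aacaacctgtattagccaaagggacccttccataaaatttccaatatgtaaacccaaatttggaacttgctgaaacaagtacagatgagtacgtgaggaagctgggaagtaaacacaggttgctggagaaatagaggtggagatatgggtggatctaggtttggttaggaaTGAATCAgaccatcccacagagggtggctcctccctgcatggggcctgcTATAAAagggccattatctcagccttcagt
SPRR1A (chr1:152956307-152956556, plus strand): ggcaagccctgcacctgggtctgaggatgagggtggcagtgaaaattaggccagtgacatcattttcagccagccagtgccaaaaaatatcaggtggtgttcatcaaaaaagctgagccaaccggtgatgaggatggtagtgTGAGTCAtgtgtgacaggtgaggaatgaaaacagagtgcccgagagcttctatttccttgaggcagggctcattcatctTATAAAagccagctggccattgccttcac
LORICRIN (chr1:153231913-153232162, plus strand): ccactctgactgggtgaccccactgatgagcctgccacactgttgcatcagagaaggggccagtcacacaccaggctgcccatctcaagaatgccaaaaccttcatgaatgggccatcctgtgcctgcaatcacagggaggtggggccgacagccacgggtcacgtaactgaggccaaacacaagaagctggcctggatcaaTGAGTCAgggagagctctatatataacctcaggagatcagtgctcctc

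The S100A10 promoter held 24 CpG dinucleotides in these 250 bases, and that of S100A6 also held 24, compared with 1 in FLG, 2 in SPRR1A and 3 in LORICRIN. The median was 1.5 CpG over the 44 genes of the interior lists, with a range of 0 to 5, and 18 over 19881 protein-coding promoters. CpG content did not follow the S100 family as a whole. Its median was 19.5 over the 2 genes of the left end, 4 over the 9 from S100A6 to S100A1 and 2 over the 6 from S100A9 to S100A7. S100A5 and S100A16, whose anchors had high counts, held 1 CpG each, as few as S100A12 and S100A7. TGANTCA, searched as these letters and so alike on both strands, was present upstream of 6 of 7 fused-type genes and 8 of 10 SPRR genes, but of 0 of 20 genes of the LCE list. It was also present upstream of IVL, LORICRIN, PRR9 and LELP1, and of 3 of 9 genes from S100A6 to S100A1 (S100A5, S100A3 and S100A2) and 1 of 6 from S100A9 to S100A7 (S100A12). Over all protein-coding promoters, 4.69% held it. TATAAA at this distance was found in 23 of the 44 interior promoters and in 4 of 6 from S100A9 to S100A7, compared with 3.90% of all promoters. From S100A6 to S100A1 it was found in 2 of 9 (S100A4 and S100A13). A match is a description of letters and not of a bound site.

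Across the stretch, the counts of an anchor to other anchors rose at both ends and stayed near those of an average anchor in between. The anchor that holds the S100A4 and S100A3 starts (chr1:153517493-153523440) had 55 counts in replicate 1 and 68 in replicate 2. The S100A2 anchor (chr1:153537083-153541503, its first exon) had 56 and 63. The S100A10 anchor (chr1:151960591-151969128, first exon) had 53 and 61, and the S100A5 anchor (chr1:153510828-153514351) had 49 and 47. These 4 anchors ranked highest of the 200 by summed count in this order, while the median of all anchors of the genome was 8 in replicate 1 and 9 in replicate 2. At the left end, high counts also lay at the S100A11 gene (chr1:152000755-152010733, exons 1 to 3), with 33 and 37, and at an intergenic anchor upstream of it (chr1:152018737-152022142), with 36 and 47. The other 6 anchors of the left end had 7 to 18 counts. At the right end, an intergenic anchor at lower coordinates than S100A6 (chr1:153487347-153490968) had 38 in each replicate, and the anchor of S100A16 (chr1:153579772-153584453, exons 2 and 3) had 39 in each.

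**Figure D1:**
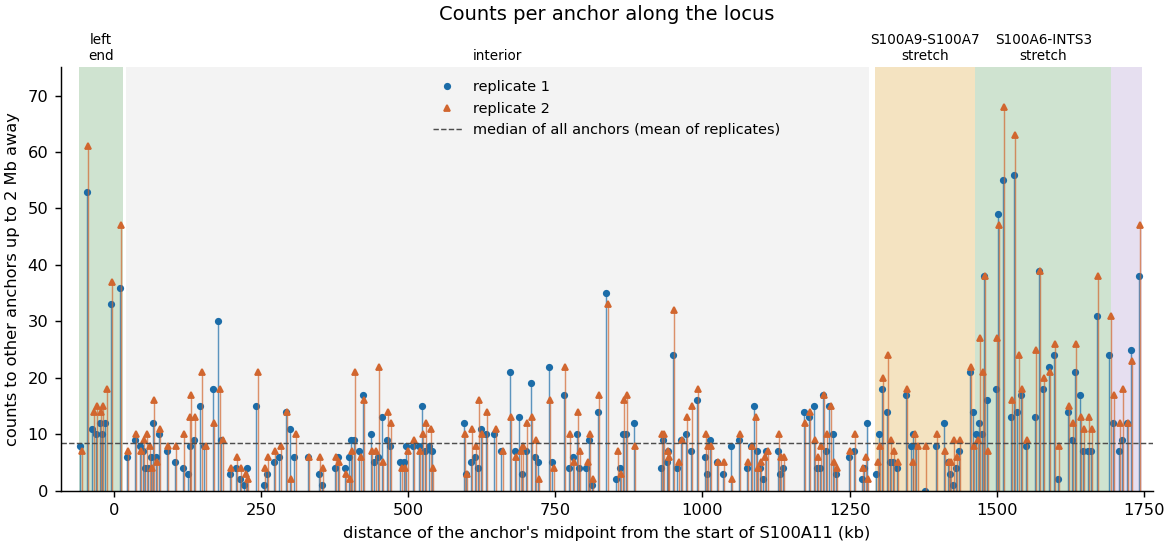
Counts of each of the 200 anchors to other anchors up to 2 Mb away (vertical axis) against the distance of its midpoint from the start of S100A11 in kb, for replicate 1 (circles) and replicate 2 (triangles), with the left end and the S100A6-INTS3 stretch shaded green and the S100A9-S100A7 stretch shaded orange. The highest anchors, with up to 68 counts, lie in the green zones, and the dashed line is the median of all anchors.

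Over anchors, the median was 12 and 15 counts at the left end (9 anchors, replicates 1 and 2), 7 and 8 in the interior (136 anchors), 8 and 8 from S100A9 to S100A7 (21 anchors), and 16.5 and 21 from S100A6 to INTS3 (28 anchors). The S100A9-S100A7 stretch thus lay with the interior and not with the rest of the right end. For a test, the counts of all loops touching a stretch, each loop once and without the loops that join the compared stretches, were divided by the number of anchors and compared by an exact conditional binomial test within each replicate, adjusted by Benjamini-Hochberg over 12 comparisons. The left end had 12.3 and 16.4 counts per anchor compared with 4.49 and 5.10 in the interior, a ratio of 2.99 ± 0.334 (SD, n = 2). Adjusted p-values of this exact test were 4.38e-18 in replicate 1 and 1.38e-29 in replicate 2. From S100A6 to INTS3 the ratio to the interior was 2.85 ± 0.223 (SD, n = 2), with adjusted p-values of 3.48e-43 and 6.34e-64 by the same exact test. From S100A9 to S100A7 it was 1.18 ± 0.0348 (SD, n = 2) and did not pass the exact test in either replicate (adjusted p = 0.0735 and 0.137), although it did over both replicates summed (p = 0.0212). By this rate the left end exceeded the S100A6-INTS3 stretch by 1.26-fold ± 0.0124 (SD, n = 2; exact test, adjusted p = 0.0194 and 0.0173). A loop inside a stretch touches 2 of its anchors but is counted once, which lowers the rate of a stretch with many such loops. Such counts made up 20.9% and 20.0% at the left end, 53.5% and 46.9% from S100A6 to INTS3, and 69.8% and 71.2% in the interior. The medians above went the other way. So did counts per kb of anchor, with 5.30 and 6.54 at the left end and 7.02 and 8.40 from S100A6 to INTS3. This counting also raises the ratios to the interior. The S100A6-INTS3 stretch exceeded the S100A9-S100A7 stretch 2.59-fold ± 0.0685 (SD, n = 2; exact test, adjusted p = 8.03e-18 and 1.84e-23). The right end was divided by gene groups chosen with earlier results of these data known. Tests of its 2 parts, here and below, are therefore a description and no separate support for the division. These tests treat tags as independent, so they and all intervals cover counting error only.

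Counts within a single anchor, which form no loop, gave a second readout. They averaged 4.11 and 4.78 per anchor at the left end, 3.29 and 3.61 from S100A6 to INTS3, and 1.07 and 1.12 in the interior. The ratio of the left end to the interior was 3.86 (95% interval, 2.61 to 5.57) in replicate 1 and 4.27 (2.97 to 6.03) in replicate 2, and the ratio of the S100A6-INTS3 stretch to the interior was 3.08 (2.35 to 4.03) and 3.23 (2.48 to 4.18). From S100A9 to S100A7 the values were 0.714 and 0.476, below the interior in replicate 2 (exact test, adjusted p = 0.00600) and not different from it in replicate 1 (adjusted p = 0.162). The single-anchor counts and the loop counts therefore ranked the S100A9-S100A7 stretch slightly differently against the interior, while both placed the other S100 genes above it.

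By gene, counts were summed over the anchors that overlap the start ± 2.5 kb and set beside those of all 19881 protein-coding promoters, whose median was 12 in replicate 1 and 14 in replicate 2. At the left end, S100A10 had 53 and 61 counts and S100A11 had 33 and 37. At the right end, all 9 genes from S100A6 to S100A1 lay above these medians in both replicates. S100A6, known as calcyclin, had 67 and 74, which includes the S100A5 anchor. S100A4, a gene linked to cell motility and metastasis, and S100A3 share the anchor with 55 and 68. S100A2 had 56 and 63, S100A5 had 49 and 47, and S100A16 had 39 and 39. S100A14 had 18 and 20, and S100A13 and S100A1, which share an anchor, had 22 and 21, the lowest of the 9. With the window of ± 2.5 kb, counts per promoter fell into a group of 6 genes at 39 or more and a group of 3 between 18 and 22, with no value of one replicate in the range of the other group. This split depended on the window. The S100A6 anchor without that of S100A5 had 45 summed counts, near the 43 of the S100A13 and S100A1 anchor. The S100A16 anchor ends at 153584453, more than 1 kb from that gene's start at 153585613.

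None of the 6 genes from S100A9 to S100A7 was above the median of all promoters in replicate 1 or replicate 2. S100A9 had 5 and 9 counts and S100A8, its partner in calprotectin, had 8 and 5. S100A7, which encodes psoriasin, had 4 and 14, equal to the median in replicate 2. S100A12 and the pseudogene S100A7L2 had no anchor within 2.5 kb of the start. The near-identical S100A7 copies can share reads, so their values are uncertain.

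On the lists of the interior, which here include PGLYRP4, 32 of 44 genes had an anchor at the promoter, compared with 82.9% of all protein-coding promoters. Their medians, with genes without an anchor counted as 0, were 7 and 9.5 counts, and 12 genes in replicate 1 and 11 in replicate 2 exceeded the median of all promoters. Of the fused-type genes, TCHHL1 was the highest with 11 and 19 counts, FLG had 14 and 14, TCHH (trichohyalin, of the hair follicle) had 10 and 11, and CRNN (cornulin) had 4 and 6. RPTN, HRNR and FLG2 had no anchor there. An anchor inside the third exon of HRNR (chr1:152186511-152189330) had 30 and 18 counts, and so ranked 15 of the 200 anchors. It also overlaps FLG-AS1, and the counts cannot be assigned to a strand. The LCE list had medians of 7 and 10 and a range of 0 to 22 in replicate 1 and 0 to 32 in replicate 2. LCE1C was its highest gene in the sum of both replicates with 21 and 32, followed by LCE1D with 17 and 22 and LCE1F with 22 and 16. No anchor lay between chr1:152552127 and 152603718, a gap of 51.6 kb with the starts of LCE3D, LCE3C, LCE3B and LCE3A, where the mean gap between anchors of the locus was 5.67 kb.

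The SPRR genes had medians of 5 and 7. SPRR1A was their highest with 24 and 32 counts, in a wide anchor of 12.6 kb, and SPRR1B had 16 and 18. SPRR2A, SPRR2E and SPRR2G had no promoter anchor, and the SPRR2 and LCE copies are alike enough that reads could be lost or placed in a neighbouring copy. LORICRIN had 10 and 5 counts and IVL 10 and 17. The highest promoter of the interior was SMCP, a gene of sperm mitochondria, with 35 and 33 counts in an anchor of 16.2 kb (chr1:152839240-152855471). Per kb of anchor, the SMCP anchor had 4.19 summed counts and that of SPRR1A 4.44, compared with 26.9 for S100A2 and 20.7 for S100A4 and S100A3. Single anchors of the 2 sides overlapped by this measure. The S100A11 anchor had 70 summed counts in 9979 bases, the LORICRIN anchor 15 in 1684 and the HRNR exon anchor 48 in 2820. Over all anchors of a zone, counts per kb were 2.37 and 2.70 in the interior and 5.30 and 6.54 at the left end. The other genes of the right end, CHTOP, SNAPIN, ILF2, NPR1 and INTS3, which work in RNA processing, vesicle release and natriuretic peptide signalling, had 14 to 24 counts in replicate 1 and 13 to 31 in replicate 2.

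**Figure D2:**
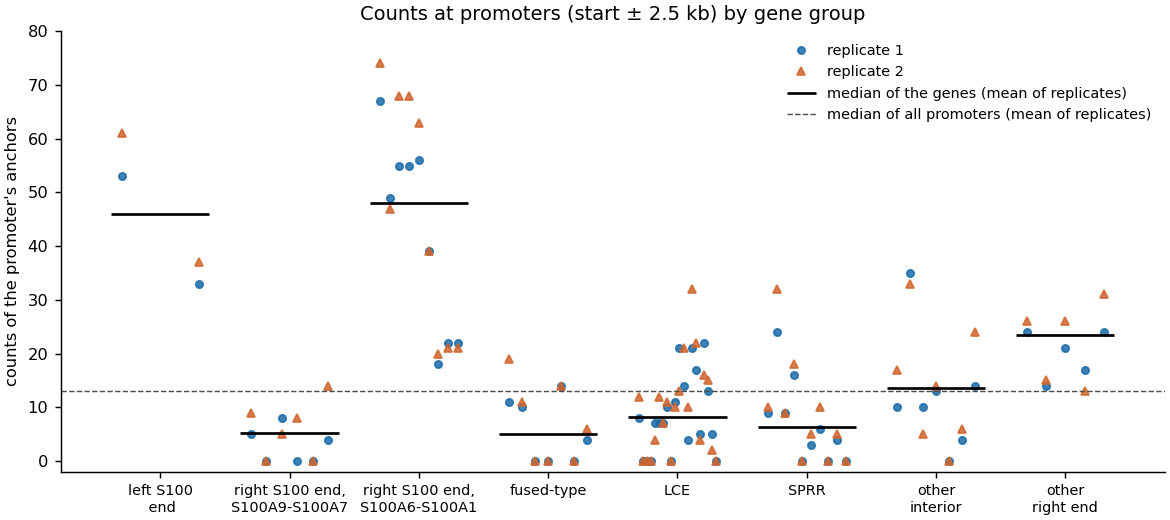
Counts of the anchors overlapping each promoter (start ± 2.5 kb) for every gene of the lists, in list order within each group, with replicate 1 as circles and replicate 2 as triangles. Black lines are medians over the genes of a list, taken on replicate means, and all 9 genes from S100A6 to S100A1 lie above the dashed line, the median of all protein-coding promoters.

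Genes that mark cell types were read the same way as a check of the label. Among markers of colon epithelium, KRT18 had 70 and 83 counts, KRT8 had 54 and 63, and CDX2, an intestinal transcription factor, had 34 and 31. EPCAM (10 and 18), CDH1 (4 and 11) and VIL1 (7 and 8) were near or below the median of promoters. Of the keratinocyte markers, KRT14 and KRT1 had no promoter anchor and TP63 had 10 and 8, while KRT5 (44 and 52) and KRT10 (61 and 80) were high. PTPRC, a marker of blood cells, had 15 and 16. The counts at a promoter thus did not separate these marker lists cleanly.

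Loops with counts of at least 5 were concentrated at the ends. Over the whole locus, replicate 1 had 12 such loops of 1014, or 1.18% (exact 95% binomial interval, 0.613 to 2.06%), and replicate 2 had 9 of 1196, or 0.753% (0.345 to 1.42%), compared with 0.493% and 0.596% of all loops. Of the loops touching an S100 end but not the interior, 9 of 401 in replicate 1 and 8 of 491 in replicate 2 reached 5, compared with 2 of 492 and 0 of 554 of those touching the interior but no end. The 0 of 554 allows a share of up to 0.664%. The difference passed Fisher's exact test in both replicates (adjusted p = 0.0309 and 0.00922 over 8 tests). In the S100A6-INTS3 stretch alone, 7 of 250 and 6 of 328 loops reached 5 (Fisher's exact test against the interior, adjusted p = 0.0139 and 0.00922). At the left end, 2 of 87 and 2 of 102 did, which passed the same exact test in replicate 2 (adjusted p = 0.0317) and not in replicate 1 (adjusted p = 0.127). None did in the S100A9-S100A7 stretch, where 0 of 105 loops allows a share of up to 3.45% in replicate 1 and 0 of 108 up to 3.36% in replicate 2 (upper exact binomial limits). Of all 1986 loops of the locus, 224 occurred in both replicates, and 4 of these reached 5 in both. These 224 were 22.1% of the locus loops of replicate 1 and 18.7% of those of replicate 2. Of all loops of the genome, 19.7% and 17.4% occurred in the other replicate, so the overlap was near that background.

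The loop with the highest count joined the S100A5 anchor with the S100A4 and S100A3 anchor, 7.88 kb away between midpoints, with 12 counts in each replicate. S100A5 was also joined to S100A2, 26.7 kb away, by 5 and 7 counts, and the S100A4 and S100A3 anchor to S100A2, 18.8 kb away, by 7 and 3. The S100A6 anchor (chr1:153507703-153509850) and the S100A5 anchor shared 8 and 5. A pair of intergenic anchors at lower coordinates than S100A6 reached into the gene group. The one at chr1:153487347-153490968 had 4 and 3 counts to S100A4 and S100A3, 31.3 kb away, and 5 and 0 to S100A5, which replicate 2 did not repeat. The one at chr1:153483236-153486322 had 2 and 4 counts to S100A2, 54.5 kb away. Near S100A16, 4 and 8 counts joined its anchor to one 6.69 kb away (chr1:153574110-153576726), which overlaps a long non-coding RNA gene. These loops join S100 genes or their surroundings with each other, and no loop of the stretch with 5 or more summed counts at 20 kb or more reached from it into the interior.

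At the left end, the strongest loop joined S100A10 with an anchor 46.8 kb to its left (chr1:151915406-151920749), which lies outside the stretch and overlaps a long non-coding RNA gene, by 5 and 8 counts. A nearer anchor (chr1:151942730-151945903), 20.5 kb away, had 4 and 4 counts to S100A10. S100A10 and S100A11, 40.9 kb apart, shared 6 counts in replicate 1 but a single one in replicate 2, and S100A10 and the intergenic anchor upstream of S100A11 by 2 and 4, at 55.6 kb. That intergenic anchor and S100A11 shared 3 and 7. In the interior, 1 loop of 20 kb or more reached a summed count of 5. It joined LCE1F with LCE1C, 25.9 kb apart, by 3 and 3 counts. SMCP and SPRR1A, 113 kb apart, had 1 and 3 counts.

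Against the count expected from distance and from the depth of both anchors, with the pair's own count left out of the depth, no loop of the locus passed the one-sided Poisson test at an adjusted p under 0.01 after Benjamini-Hochberg adjustment over 51094602 anchor pairs. The test called 0 in each replicate, compared with 5 pairs (9.79e-06%) and 11 pairs (2.15e-05%) in the genome, and 46.2% and 43.6% of its loops (468 and 521) had an unadjusted p below 0.05, compared with 46.7% and 44.4% of all loops. These shares count only pairs with at least 1 tag, for which a low expectation alone gives a low p. With the expectation from distance alone, 1324 of 1017526 loops of the genome were called in replicate 1 and 1796 of 1156897 in replicate 2. These made up 0.00259% and 0.00352% of all pairs. In the locus, 4 of 1014 loops in replicate 1 and 3 of 1196 in replicate 2 were called. They were S100A5 with S100A4 and S100A3 in both replicates, S100A4 with S100A2, S100A10 with S100A11 and SLC27A3 with an anchor at SLC39A1 and CREB3L4 in replicate 1, and S100A10 with its left partner and S100A5 with S100A2 in replicate 2. The ratio of the summed count to the expectation from distance and depth was 1.78 for S100A5 with S100A4 and S100A3 (95% Poisson interval, 1.14 to 2.65), 2.22 for S100A5 with S100A2 (1.15 to 3.88), 2.53 for S100A10 with its left partner (1.35 to 4.33) and 3.62 for the SLC27A3 loop (1.17 to 8.44). It was 1.60 for S100A10 with S100A11 (0.642 to 3.29) and 0.899 for S100A4 with S100A2 (0.431 to 1.65). With the pair's own count kept in the depth, as in the sums over zones, the ratio fell to 1.10 for S100A5 with S100A4 and S100A3 (0.703 to 1.63) and 1.79 for S100A5 with S100A2 (0.925 to 3.13), both with an interval across 1. It was then 1.98 for S100A10 with its left partner (1.06 to 3.39) and 3.31 for the SLC27A3 loop (1.08 to 7.73). These loops were picked by their counts, so the intervals are a description.

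Contacts between zones were summed over all anchor pairs, those without counts included, and divided by the expected sum. From distance alone, the counts within the S100A6-INTS3 stretch were 2.94 times the expectation (95% Poisson interval, 2.67 to 3.24; 417 counts), those within the left end 2.39 times (1.86 to 3.02; 70 counts) and those within the interior 0.940 times (0.882 to 1.00; 979 counts). Correction for depth brought the ratio for the S100A6-INTS3 stretch to 1.13 (1.02 to 1.24) and that for the left end to 0.908 (0.708 to 1.15), and it raised the interior to 1.19 (1.12 to 1.27). Within the ends, most of the ratio above 1 was thus taken up by the depth term. That term is fitted to the same counts, which pulls a ratio within a zone towards 1. Of the counts touching the S100A6-INTS3 stretch, 53.5% and 46.9% lay within it. Whether depth accounts for these contacts was not tested.

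The 2 ends touched each other rarely. In all, 11 counts joined them over more than 1 Mb, 3 in replicate 1 and 8 in replicate 2, and all but 2 of them reached the S100A6-INTS3 stretch. From distance alone the ratio was 3.15 (95% Poisson interval, 1.57 to 5.64; exact Poisson test, adjusted p = 0.00363 over 29 zone pairs), and with depth it was 1.28 (0.641 to 2.30; adjusted p = 0.617). The first ratio was 1.84 (0.38 to 5.38) in replicate 1 and 4.30 (1.86 to 8.47) in replicate 2, so it rested on replicate 2. The single pair of anchors with more than 1 summed count joined S100A10 with S100A13 and S100A1, 1635 kb apart, by 0 counts in replicate 1 and 2 in replicate 2. A contact between the ends beyond the depth of their anchors was not detectable at this depth.

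Summed over the interior, the ends differed in how they met it. The left end and the interior shared 84 counts, 1.42 times the expectation from distance (95% Poisson interval, 1.14 to 1.76) and 0.858 times that from distance and depth (0.684 to 1.06). Most of these, 65 counts, went to the neighbouring fused-type block, at 0.952 times the expectation with depth (0.734 to 1.21). With the farther LCE block the left end shared 9 counts, 0.471 times (0.215 to 0.894), and with the SPRR block 9, 1.11 times (0.505 to 2.10). The S100A6-INTS3 stretch had 0.494 times with the LCE block, and unlike the left end it does not adjoin the interior. The S100A6-INTS3 stretch and the interior shared 51 counts, 0.590 times the expectation from distance (0.439 to 0.775) and 0.416 times that from distance and depth (0.310 to 0.547; exact Poisson test, adjusted p = 3.80e-12 over 29 zone pairs). The second ratio was 0.435 in replicate 1 and 0.399 in replicate 2. The S100A9-S100A7 stretch and the interior shared 64 counts, 0.561 times the expectation from distance (0.432 to 0.716) and 0.795 times that with depth (0.612 to 1.015). The interior also had few counts to the chromosome beyond the right flank, with 51 counts and 0.404 times the expectation from distance and depth (0.301 to 0.531), and 0.564 times to the left of the locus (0.478 to 0.660). The left end had 172 counts to its left, 2.52 times the expectation from distance (2.16 to 2.92) and 1.16 times with depth (0.992 to 1.35). Farther off, the S100A6-INTS3 stretch and the chromosome to the left of the locus shared 28 counts, 2.01 times the expectation with depth (1.33 to 2.90; exact Poisson test, adjusted p = 0.00391). With the chromosome to the right of the locus, this stretch shared 167 counts, which were above the expectation from distance (1.36 times; 1.16 to 1.58; exact Poisson test, adjusted p = 0.000426) and below that with depth (0.767 times; 0.655 to 0.893; exact test, adjusted p = 0.00151), so the direction turned with the depth term.

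**Figure D3:**
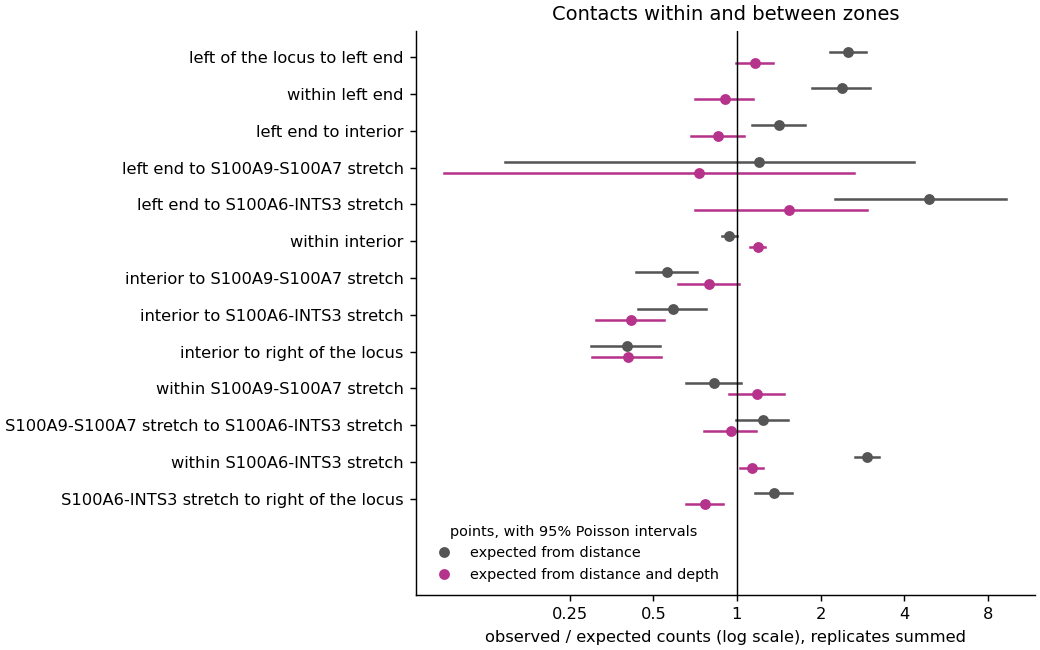
Observed over expected counts within and between zones, replicates summed, on a log scale, with 95% Poisson intervals, for the expectation from distance (grey) and from distance and depth (purple). The interior to the S100A6-INTS3 stretch and to the right of the locus lie below 1 under both expectations, and the left end to the S100A6-INTS3 stretch lies above 1 under the first and has an interval across 1 under the second.

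When the interior was divided into its gene blocks, the contact of the SPRR block with the right end was the lowest of the 4 blocks under both expectations when the replicates were summed. With the S100A6-INTS3 stretch this order rested on 2 counts in replicate 2, and in replicate 1 the loricrin and LCE blocks were lower, with 0.314 and 0.423 times the expectation with depth compared with 0.498 for SPRR. The SPRR block (chr1:152839240-153148337) also holds SMCP and IVL. This block and the S100A9-S100A7 stretch shared 11 counts, 0.292 times the expectation from distance (95% Poisson interval, 0.146 to 0.523) and 0.398 times that with depth (0.199 to 0.712). With the S100A6-INTS3 stretch, the SPRR block shared 12 counts, 0.271 times the expectation with depth (0.140 to 0.473), with 0.0826 in replicate 2. The farther LCE block had 0.494 times the expectation (0.277 to 0.815) and the fused-type block 0.692 times (0.345 to 1.24), both with the S100A6-INTS3 stretch. The block with loricrin and PGLYRP3, which borders the right end, had 0.405 times the expectation with that stretch (0.216 to 0.692; 13 counts). With the adjoining S100A9-S100A7 stretch its 24 counts were 0.838 times the expectation with depth, with an interval across 1 (0.537 to 1.25). Within the interior, the LCE block and the block with loricrin and PGLYRP3 shared 40 counts, 2.45 times the expectation with depth (1.75 to 3.34), and the SPRR block and the loricrin block shared 57, 1.62 times (1.23 to 2.10). The first ratio was 2.17 in replicate 1 and 2.75 in replicate 2.

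To place this change, the counts crossing each point of the locus were summed over pairs with both anchors within 300 kb of it, a measure chosen after the contacts of the blocks had been seen. The ratio to the expectation from distance and depth was lowest at 153270000, at the 3′ end of PGLYRP3, where 13 counts crossed in replicate 1 and 16 in replicate 2, a ratio of 0.351 and 0.390 and of 0.371 over both (95% Poisson interval, 0.249 to 0.533). Of 9575 points spaced by 20 kb on chromosome 1, 0.125% had a ratio as low, and the middle 90% ran from 0.634 to 1.44. It was highest at 153010000, within the SPRR genes, with 1.86 (1.54 to 2.22), a value that 0.136% of the points reached. Both are extremes picked from 91 points of the locus, while the shares are of single points whose windows overlap. The shares are therefore a description and no measure of rarity. The lowest value of replicate 1 was 0.289 at 153230000, just before the loricrin start, and that of replicate 2 was 0.390 at 153270000. The replicates also differed around 152410000, where 22 counts crossed in replicate 1 and 54 in replicate 2, a ratio of 0.823 and 1.85.

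**Figure D4:**
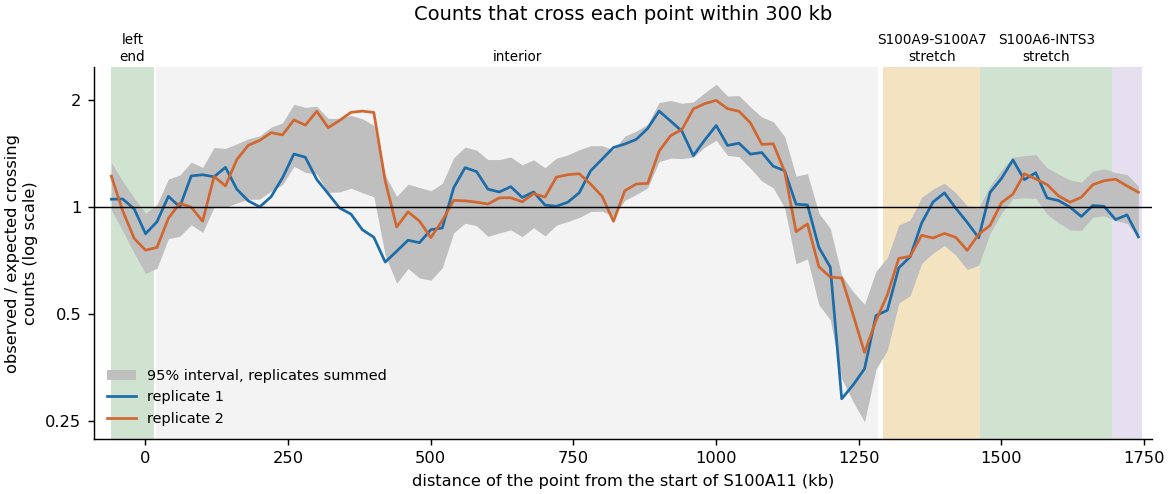
Observed over expected counts that cross each point, from pairs with both anchors within 300 kb of it, on a log scale against the distance from the start of S100A11 in kb, with the expectation from distance and depth. Both replicates fall to below 0.4 in the interior next to the S100A9-S100A7 stretch, and the grey band is the 95% Poisson interval of the replicates summed.

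Over the anchors within 300 kb of the lowest point, the share of counts going to lower coordinates was set beside that expected from distance and depth. On the side of loricrin and the SPRR genes, 29 of 33 anchors were above their expected share, with 63.5% of all counts going to lower coordinates where 48.0% was expected. On the side of the S100 genes, 18 of 37 anchors were above and 19 below, with 41.5% where 44.6% was expected. The share thus departed from the expectation mainly on the first side. These anchors also supplied the crossing counts by which the point was picked, so the shares are a description and no separate support for it. Of the summed counts of an intergenic anchor near loricrin (chr1:153224084-153228356), 24 of 30 went to anchors at lower coordinates, where 52.6% was expected. Of those of an intergenic anchor between S100A12 and S100A8 (chr1:153353179-153359817), 7 of 35 did, where 41.2% was expected. In the replicates, the numbers were 13 of 15 and 11 of 15 for the first anchor and 4 of 17 and 3 of 18 for the second. S100A2 and the S100A4 and S100A3 anchor sent 51.3% and 52.0% of their counts to lower coordinates, close to the expected 51.3% and 52.4%. S100A14 (chr1:153588693-153590447) sent 78.9% there, that is towards S100A2 to S100A6, where 57.3% was expected. These single anchors were chosen after their values had been seen, and are given as a description.

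**Figure D5:**
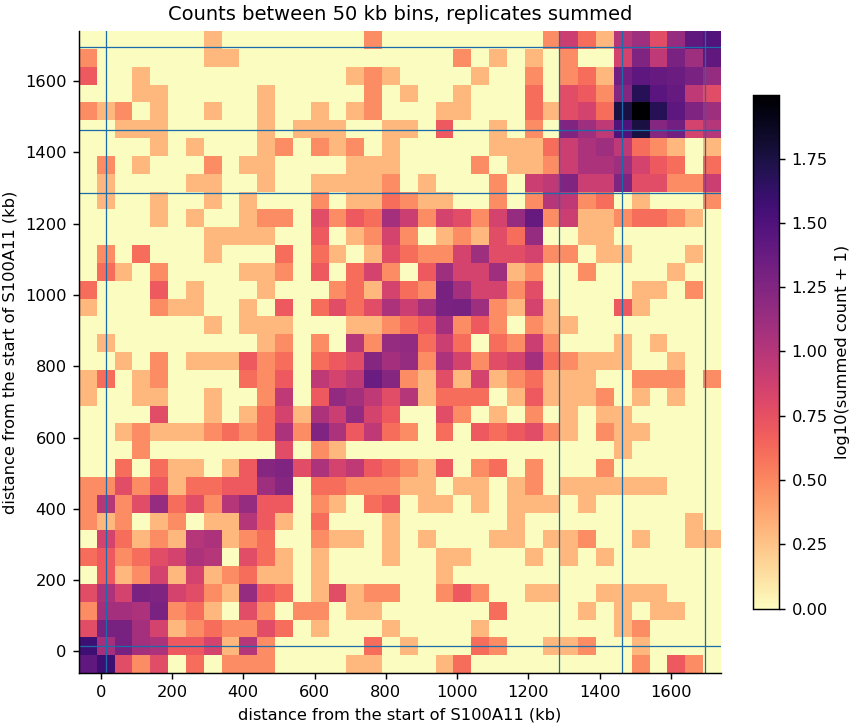
Counts between bins of 50 kb, replicates summed, shown as log10(summed count + 1), with both axes giving the distance from the start of S100A11 in kb and blue lines marking the limits of the left end, the interior, the S100A9-S100A7 stretch and the S100A6-INTS3 stretch. Counts are densest in the S100A6-INTS3 stretch at the upper right, and the squares of the interior and of the right end meet with few counts between them.

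Loops of the locus were slightly longer than those of the genome, with a median of 168 and 160 kb compared with 143 and 149 kb. From S100A6 to INTS3, 53.5% and 46.9% of the counts stayed within the stretch, 6.72% and 5.59% went to the interior, and 16.9% and 22.4% went beyond the right flank. In the interior, 69.8% and 71.2% of counts stayed within it. Compared with other gene clusters, the locus as a whole had 6.17 and 7.26 counts per anchor, and the type II keratin cluster on chromosome 12, which holds KRT8, KRT18 and keratins of the skin, had 11.98 and 14.7 over 93 anchors. The ratio was 0.515 (95% interval, 0.474 to 0.559) in replicate 1 and 0.493 (0.458 to 0.531) in replicate 2. The interior had 0.400 and 0.368 times the counts per anchor of the keratin cluster (exact test, adjusted p = 9.68e-80 and 1.11e-111 over 10 tests). The S100A6-INTS3 stretch had 1.11 times (0.984 to 1.25) and 1.13 times (1.013 to 1.25).

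The olfactory receptor cluster first chosen for comparison, from OR4A16 to OR9G4 on chromosome 11, held 0 anchors over 46 protein-coding genes and gave no comparison. Another on chromosome 1, from OR2B11 to OR14I1, was taken in its place after this had been seen. It had 41 anchors, or 34.7 per Mb, where the interior had 108. The interior had 1.65 times its counts per anchor in replicate 1 (95% interval, 1.36 to 2.03) and 1.78 times in replicate 2 (1.47 to 2.16), with adjusted p-values of 1.71e-07 and 4.52e-10 by the exact test. By counts per anchor, the interior was thus above this cluster of receptors of the nose and below the keratin cluster. Its counts per anchor were close to the 4.74 and 5.47 of all anchors of the genome. Over the genome, a loop touches 2 anchors but is counted once, so this last value is not computed on the same footing and was not tested. Loops inside a compared cluster are also counted once, and the clusters differ in span. The interior spans 1258 kb, the receptor cluster 1182 kb and the keratin cluster 782 kb. The ratios between clusters were not corrected for this, nor for the number of anchors within 2 Mb.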

How the data were processed

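HCT116 chromatin was cut with MboI and immunoprecipitated for H3K27ac in a HiChIP assay, with 2 replicates of 1 condition. The counts deposited by the authors are raw paired-end tags joining 2 anchors, 1 file per replicate, from valid pairs of HiC-Pro and loops of hichipper. Their versions, the anchor source and distance limits are not given in the sources used here, and the labels name build hg19. Without molecular identifiers, intervals cover counting error only. The files held 1885481 counts in replicate 1 and 2131466 in replicate 2, of which 1187130 and 1369538 joined different anchors up to 2 Mb apart. Of these loops, 88.7% and 87.9% had a count of 1, so the value of a single loop has a wide counting interval.

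Anchors were placed in a zone by any overlap with an S100 end, in keeping with the rule for members. Midpoints had been planned, but they put the anchor upstream of S100A11 into the interior. The change was made after the data had been seen, and the values by midpoint are given in the closing section. Rates per anchor were compared by the exact conditional binomial test and shares of loops by Fisher's exact test, two-sided, in each replicate, with Benjamini-Hochberg adjustment over each family. Expected counts came from 60 distance classes, without or with anchor weights balanced in 20 rounds. For single loops the pair's own count was left out of the weights, with an offset of 0.5, and the one-sided Poisson test was adjusted over all anchor pairs. Genes were those of GENCODE 44 on GRCh37, and all genes of the lists are accounted for, by name or in counts, as are the loops with the highest counts in each zone. Promoters that share an anchor share its counts. Alternatives were replicates left out, loops up to 1 Mb, inner-edge distances, counts per kb, minimum counts of 2, other distance classes, loops of 20 kb or more, a threshold of 2 in place of 5, and promoters of ± 1 kb. For ratios of shares in these comparisons, 0.5 was added to each count. Scripts were tested on simulated data. Members and lists were chosen with earlier results of these data known. Tests were run in scipy 1.17.1 and expectations in numba 0.67.0, under Python 3.11.15, with tables handled in pandas 2.3.3 over numpy 2.4.6 and figures drawn in matplotlib 3.10.9.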

Additional observations from a re-analysis of the deposited data

How the results depend on the processing

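Under the alternatives, 151 values kept their direction, side of the threshold or size, and 24 did not. With zones by midpoint, the ratio of counts per anchor to the interior was 2.68 at the left end and 2.77 from S100A6 to INTS3. From S100A9 to S100A7 it was 1.18 over both replicates summed (exact test, p = 0.0212), and no longer passed by midpoint (1.14), with counts of at least 2 (1.22), or with a single replicate (1.16 to 1.20). By midpoint, the left end and the interior had 0.769 times the expectation from distance and depth, with an interval below 1. Without replicate 2, the contact between the ends was 1.84 times the expectation from distance, with an interval across 1, and 0.767 times that with depth, below 1 where both replicates gave 1.28. Without replicate 1 it was 4.30 and 1.72 times. Without replicate 1, the left end to the interior was 1.32 times the expectation from distance, with an interval across 1, and without replicate 2 it was 1.54 times. The ratio of the shares of loops with at least 5 counts, both ends over the interior, was 8.21 summed, 4.66 without replicate 2 and 19.2 without replicate 1, where the interior had 0 such loops. Loops above expectation numbered 0 with distance and depth and, with distance alone, 7 calls over both replicates, of 6 different loops. The median of the genes from S100A6 to S100A1 over that of all promoters fell from 3.72 to 2.23 with promoters of ± 1 kb and to 3.07 per kb of anchor, and that of all interior lists from 0.631 to 0.429 with ± 1 kb. The causes were not tested. The contact between the ends at up to 1 Mb could not be computed, since no pair lies that close. No paired analysis was possible because both samples belong to 1 group.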
